A study of Mus musculus with 2 samples.

Results

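The sequences described here are 6 annotated mouse piRNAs, mmu_piR_000580, mmu_piR_027673, mmu_piR_000620, mmu_piR_000622, mmu_piR_000585 and mmu_piR_011982. They were taken by name, selected on their reads in these libraries: each had reads, matched no annotated exon over its whole length and overlapped no other detected piRNA. They are 6 of the 90 piRNAs with a read and of the 39986 annotated ones, and 6 of the 19 detected piRNAs without an exonic match. The cells were GC-1, a mouse line made from immortalised spermatogonia. They gave 1 library at 0 nM MC-LR (control) and 1 at 500 nM MC-LR, both after 24 h of exposure in the same medium, and no change of genotype is named in the labels. MC-LR is microcystin-LR, a cyanobacterial toxin that inhibits serine/threonine protein phosphatases. The labelled cell type could not be checked against marker genes, since the tables list piRNAs alone. The control library held 244066 piRNA reads and the MC-LR library 359871. With 1 library per group there was no replicate check and no test of the conditions, and every interval below is a 95% interval of counting error between these 2 libraries.

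PIWI-interacting RNAs are small RNAs bound by PIWI proteins in germ cells, where they silence transposons. Fragments of abundant structural RNAs can carry sequences that piRNA collections also list. Among such RNAs are the C/D box small nucleolar RNAs (snoRNAs), short RNAs that guide ribose methylation of other RNAs. A box C near their 5′ end and a box D near their 3′ end are held together by a short terminal stem.

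The annotated sequences are given first because the origin and the ends of the reads are read from them. The capitals mark the tag, a distinct read sequence, with the most reads in the control.
mmu_piR_000580: CCGGGTGATGCGAATCGTAATCTGAGCcga
mmu_piR_027673: CGGCGATGATGACACTCCAtac
mmu_piR_000620: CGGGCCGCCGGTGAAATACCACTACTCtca
mmu_piR_000622: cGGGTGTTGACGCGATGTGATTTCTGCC
mmu_piR_000585: ccGTGGCGCAATGAAGGTGAAGGGCc
mmu_piR_011982: aAAGCAGAGGTAGATGGACTtc

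Both mmu_piR_000580 and mmu_piR_027673 lay on the same snoRNA, Snord104, at its opposite ends. Bases 1 to 27 of mmu_piR_000580 are the last 27 bases (positions 44 to 70) of the 70-nt Snord104 entry of GENCODE M21, at chromosome 11, plus strand, 106501036 to 106501062 in GRCm38. Its last 3 bases lie beyond that entry. Bases 3 to 22 of mmu_piR_027673 are the first 20 bases of the same entry, from 106500993 to 106501012, with 2 bases before it. This is why neither had matched an exon over its whole length. The entry has a single exon, and it overlapped no other gene of the annotation. In the entry the stretches shared with mmu_piR_027673 and mmu_piR_000580 stand in capitals.
Snord104: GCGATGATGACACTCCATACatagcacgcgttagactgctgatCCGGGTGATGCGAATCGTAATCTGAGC
The 23 bases in lower case were covered by neither, and 0 other detected piRNAs shared 12 bases or more with the entry. The label of unpaired sequences without an exonic match thus holds for the whole annotated sequences, but these 2 share 1 RNA over 90.0% and 90.9% of their length.

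The RefSeq entry of Snord104 (GRCm38.p6) runs from 106500991 to 106501063 and is 73 nt long, 2 bases longer at the 5′ end and 1 at the 3′ end. The first base of mmu_piR_027673 falls on the first base of that span. The bases outside the GENCODE entry were not checked against a genome sequence, which was not used here. The letters TGATGA, the core of box C, stand at bases 7 to 12 of mmu_piR_027673, and were found in 7 of the 90 detected piRNAs (7.78%) on their own strand. The letters CTGA of box D stand at bases 22 to 25 of mmu_piR_000580, and were found in 19 of the 90 (21.1%). On either strand the shares were 7.78% and 37.8%. Bases 1 to 4 of mmu_piR_027673 are the reverse complement of bases 26 to 29 of mmu_piR_000580, against 2 such pairs at the ends of the GENCODE entry. The bases that both piRNAs add to the entry thus lengthen its complementary ends from 2 to 4 pairs.

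Of the 2 listed pieces of Snord104, the one at its 3′ end had far more reads. The pieces were listed at 27 to 30 nt (3′) and 19 to 22 nt (5′), so fragments of other lengths from either end were not counted. mmu_piR_000580 had 1925 reads without MC-LR and 2210 with it, or 7887 and 6141 CPM (counts per 1000000 piRNA reads, with intervals of 7539 to 8248 and 5888 to 6403), and was the sixth most abundant piRNA in each. mmu_piR_027673 had 142 and 97 reads, or 582 CPM (490 to 686) and 270 CPM (219 to 329). A read of mmu_piR_027673 stood against 13.6 reads of mmu_piR_000580 in the control and 22.8 after MC-LR. Put the other way, it reached 7.38% of the level of mmu_piR_000580 without MC-LR and 4.39% with it, a ratio of 0.595 (0.456 to 0.776). This ratio needs no scaling between the libraries, and its interval lies below 1.

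**Figure D1:**
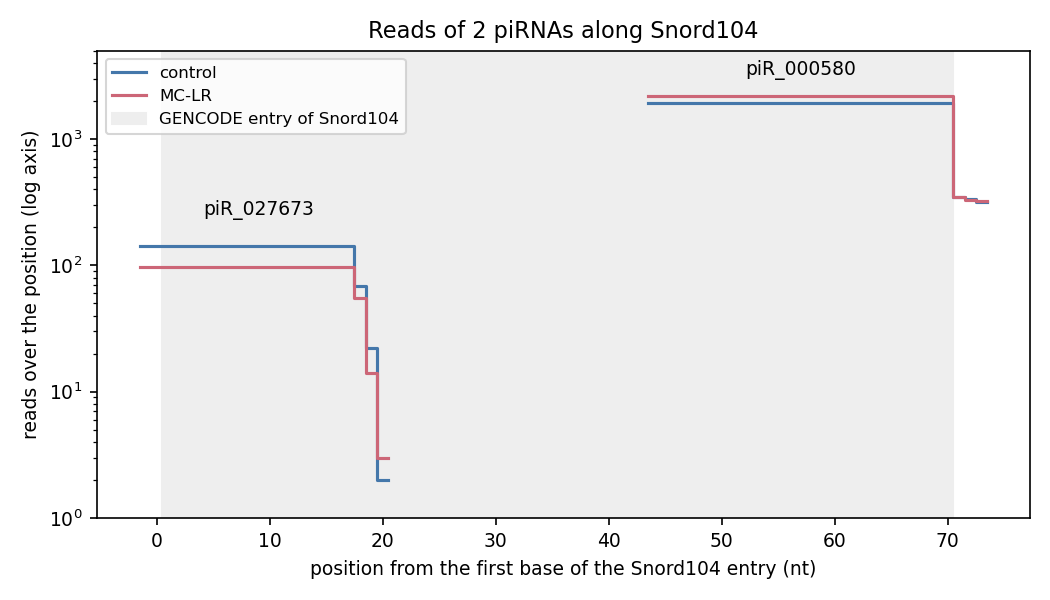
Reads over each position of Snord104 (x, nt from the first base of the GENCODE entry, shaded; y, reads on a log axis) in the control and the MC-LR library. The 5′ piece (mmu_piR_027673) is lower in the MC-LR library, with 97 against 142 reads, and the 3′ piece (mmu_piR_000580) stands at 2210 against 1925 reads, before any scaling. Lines end where no read of either piRNA was listed.

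Most listed reads of mmu_piR_000580 stopped at base 27, which is both the last base of the GENCODE entry and the shortest end listed for a read from base 1. That 27-nt tag took 1577 of 1925 control reads or 81.9% (80.1 to 83.6). In the MC-LR library it took 1862 of 2210 reads or 84.3% (82.7 to 85.7). The annotated 30-nt form took 312 reads or 16.2% (14.6 to 17.9) and 314 reads or 14.2% (12.8 to 15.7). Reads that stopped at base 28, the last base of the RefSeq span, numbered 11 and 20, and those that stopped at base 29 numbered 20 (1.04%, 0.636 to 1.60) and 6 (0.271%, 0.0997 to 0.590).

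Reads to base 30 stood at 0.201 for each read to base 27 without MC-LR and at 0.173 with it, a ratio of 0.860 (0.727 to 1.02) whose interval includes 1. Of the listed reads, 1920 of 1925 and 2200 of 2210 began at base 1, or 99.7% and 99.5%. Tags more than 3 nt shorter than their piRNA were not listed, so a read to base 27 could only be listed from base 1. Of the reads to base 30, which could begin later, 312 of 317 without MC-LR and 314 of 322 with it began at base 1. The mean tag length was 27.5 nt and 27.4 nt.

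The listed reads of mmu_piR_027673 shared a single 5′ end and had several 3′ ends. All 142 control and 97 MC-LR reads began at base 1, 2 bases before the GENCODE entry. The listing limit set this start for the 73 and 42 reads of 19 nt. Reads that stopped later, 69 and 55, could have begun after base 1 and still been listed. The tags of 19, 20, 21 and 22 nt had 73, 47, 20 and 2 control reads. In the MC-LR library they had 42, 41, 11 and 3. Reads of 20 to 22 nt stood at 0.945 and 1.31 for each read of 19 nt, a ratio of 1.39 (0.824 to 2.33), not distinguishable from 1 at this depth.

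In both libraries the files list tags within the annotated piRNA and at most 3 nt shorter than it, so that reads reaching past either annotated end were not measured. The leading tag of mmu_piR_000580, mmu_piR_000620, mmu_piR_000585 and mmu_piR_027673 had that smallest length in each library. Still shorter forms of these 4 were not measured either.

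**Figure D2:**
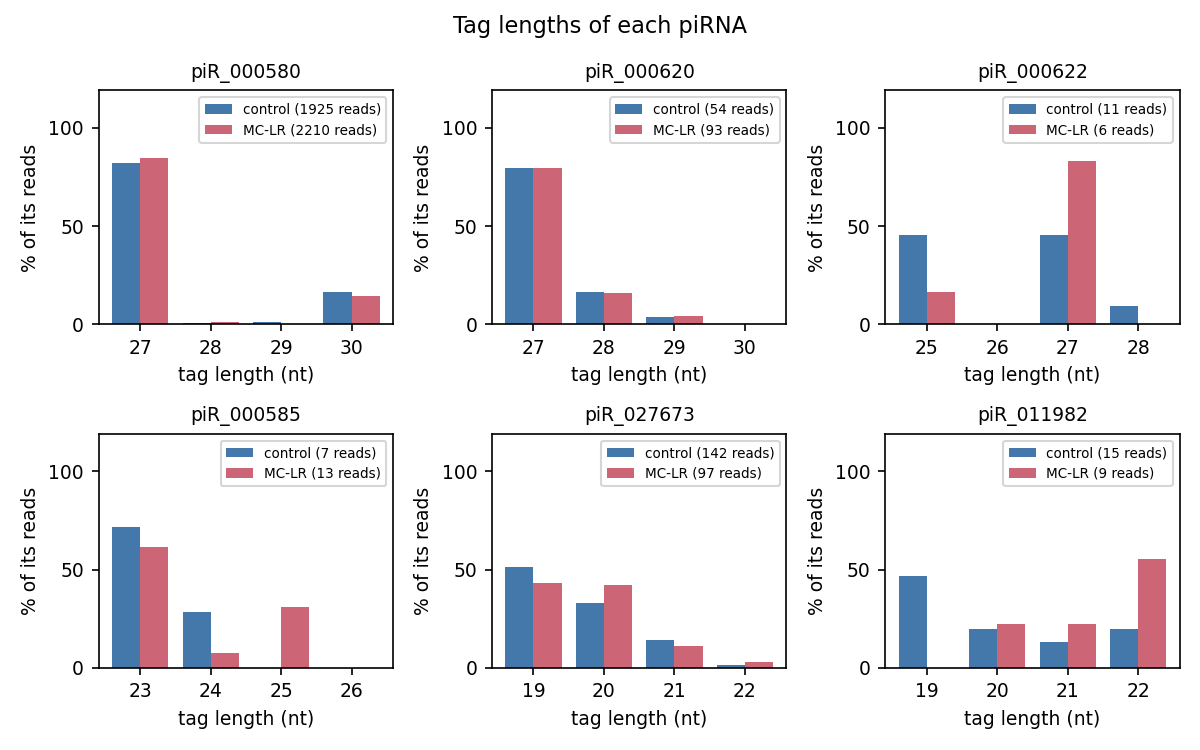
Tag lengths (x, nt) of each piRNA as a percentage of its reads (y) in the control and the MC-LR library, with the number of reads in each panel. The shortest listed length leads in both libraries for mmu_piR_000580 (82.1% and 84.4%), mmu_piR_000620 (79.6% and 79.6%), mmu_piR_000585 (71.4% and 61.5%) and mmu_piR_027673 (51.4% and 43.3%). The panels of mmu_piR_000585, mmu_piR_000622 and mmu_piR_011982 rest on 6 to 15 reads per library.

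Of the other 4 sequences, mmu_piR_000620, mmu_piR_000622 and mmu_piR_000585 are known, as background, as stretches of 28S ribosomal RNA, the large RNA of the large ribosomal subunit. That was not checked here, since the annotation used holds no entry for it. The longest stretch that mmu_piR_000620 shared with any transcript was 15 of 30 bases (Stim2, sense), and that of mmu_piR_000585 was 18 of 26 (Zmpste24, sense). Allowing 1 mismatch placed neither of them.

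With 1 mismatch mmu_piR_000622 was placed in the annotated hairpin Mir6240 on chromosome 5, from 114851997 to 114852024 (GRCm38, plus strand). The substitution was G12T, counted from 1 at the 5′ end of the piRNA, with the base of the piRNA first. Both stretches are shown with that base in capitals.
mmu_piR_000622: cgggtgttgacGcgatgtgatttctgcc
Mir6240: cgggtgttgacTcgatgtgatttctgcc
All 11 control and 6 MC-LR reads of mmu_piR_000622 covered that base, and 0 of these 17 reads carried the base of the hairpin. The files hold tags without a mismatch to their piRNA, so a read with the other base would not have been listed under it. The mature miRNA of that hairpin overlaps the stretch by 2 bases.

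Of these 3 sequences mmu_piR_000620 had the most reads. Its reads numbered 54 and 93, or 221 CPM (166 to 289) and 258 CPM (209 to 317). Relative to mmu_piR_000580 it stood at 2.81% without MC-LR and at 4.21% with it, a ratio of 1.5 (1.07 to 2.11). It was thus higher against mmu_piR_000580 in the MC-LR library, where mmu_piR_027673 was lower.

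The scarcer 2 could not be told from an unchanged level. mmu_piR_000585, at 7 and 13 reads, stood at 0.364% and 0.588% of mmu_piR_000580, a ratio of 1.62 (0.644 to 4.06). mmu_piR_000622, at 11 and 6 reads, stood at 0.571% and 0.271%, a ratio of 0.475 (0.175 to 1.29). Both intervals include 1.

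The ends of the reads differed among the 3. Of the listed reads of mmu_piR_000620, 46 of 54 in the control (85.2%) and 88 of 93 after MC-LR (94.6%) began at base 1. Among these, 40 and 72 stopped at base 27, where the listing limit allows no other start. Of the 8 and 3 reads to base 30, 0 began at base 1. Its annotated 30-nt form had 0 reads in both, with 95% intervals that reach up to 6.60% and 3.89%. Reads of 28 and 29 nt stood at 0.256 and 0.257 for each read of 27 nt, a ratio of 1.0 (0.437 to 2.31). That ratio pools tags with different ends. Reads to base 30 took 14.8% (6.62 to 27.1) of the control reads and 3.23% (0.670 to 9.14) of the MC-LR reads. mmu_piR_000585 was shortened at both ends: 0 of its 7 and 13 reads began at base 1, and 7 and 9 of them stopped at base 25 of 26. Its 23-nt tag, from base 3 to base 25, led with 5 and 8 reads. mmu_piR_000622 led with the 27-nt tag from base 2 to base 28, with 5 reads in each library, and 1 of its 17 reads began at base 1.

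No origin was found for mmu_piR_011982. Its longest shared stretch was 18 of 22 bases, on the strand opposite to Grin2d, and the search with 1 mismatch placed it nowhere in the exons. Reads numbered 15 in the control and 9 after MC-LR, or 61.5 CPM (34.4 to 101) and 25.0 CPM (11.4 to 47.5). Relative to mmu_piR_000580 its level was 0.779% and 0.407%, a ratio of 0.523 (0.228 to 1.20) with an interval that includes 1. With shortened tags alone the ratio was 0.284 (0.0913 to 0.881), an interval below 1, and with full-length tags alone it was 1.66 (0.392 to 6.99).

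Its tags differed between the libraries, on few reads. The 19-nt tag from base 2 to base 20 led in the control with 7 of 15 reads and had 0 of 9 in the MC-LR library, which allows a share of up to 33.3%. The annotated 22-nt form had 3 of 15 reads (20%, 4.33 to 48.1) and 5 of 9 (55.6%, 21.2 to 86.3). The mean tag length was 20.1 nt without MC-LR and 21.3 nt with it.

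**Figure D3:**
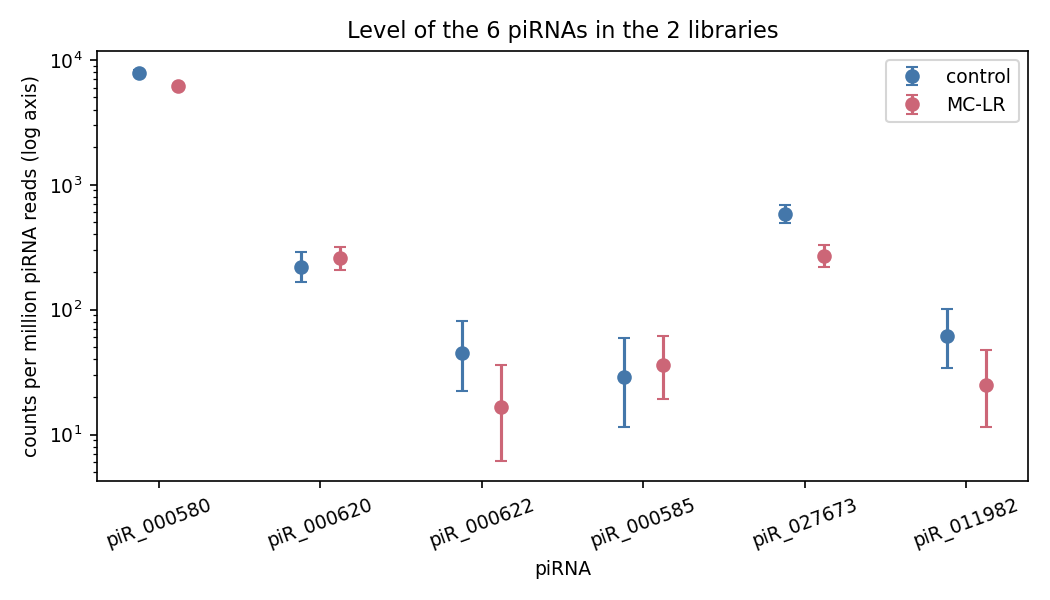
Level of each piRNA (x) in CPM (y, log axis) in the control and the MC-LR library, with exact Poisson intervals of counting error. mmu_piR_000580 lies at 7887 and 6141 CPM, and the other 5 lie between 16.7 and 582 CPM, with the intervals of both libraries apart for mmu_piR_000580 and mmu_piR_027673 and overlapping for the other 4.

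Levels against all piRNA reads follow, as a description, since reads of these libraries had chosen the sequences. A piRNA with at least 10 reads in a library was counted as higher or lower when its CPM ratio, MC-LR over control, was at least 2 or at most 0.5 with an exact interval that excludes 1. All 6 could be compared, and 2 were lower: mmu_piR_027673 at 0.463 (0.354 to 0.604) and mmu_piR_011982 at 0.407 (0.157 to 0.993). Over the 43 piRNAs with enough reads the share counted as lower was 18.6%. None of the 6 was higher, against 6.98% of the 43. The ratio was 0.779 (0.732 to 0.828) for mmu_piR_000580 and 0.370 (0.112 to 1.09) for mmu_piR_000622. It was 1.17 (0.826 to 1.67) for mmu_piR_000620 and 1.26 (0.467 to 3.73) for mmu_piR_000585. The median log2 ratio of the 6 was -0.74, beside -0.40 over the 43.

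Both calls depended on the scaling. mmu_piR_000691, a fragment of 5S ribosomal RNA, took 87.6% of control and 91.4% of MC-LR reads, and so sets the total. Scaled to the reads outside it, or with edgeR's TMM factors, DESeq2's size factors or the total without the 10 most abundant piRNAs, 0 of the 6 were lower by this rule and 0 higher. The median over the 43 moved by 0.38 to 0.68 on the log2 scale with these scalings. The ratio of mmu_piR_027673 stayed below 1 with its interval in each, from 0.602 to 0.742, while the interval of mmu_piR_011982 then included 1. mmu_piR_000580 turned from 0.779 to between 1.01 and 1.25. mmu_piR_000620 reached 1.52 to 1.87, with an interval above 1 under all 4 of these scalings.

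The comparison with mmu_piR_000580 does not move with the scaling, but that 1 piRNA sets its base. Of the 41 piRNAs with enough reads that had reads in both libraries, 24.4% were lower against it and 17.1% higher, counted by an interval that excludes 1. Among the 5 other sequences 1 was lower (mmu_piR_027673) and 1 higher (mmu_piR_000620).

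**Figure D4:**
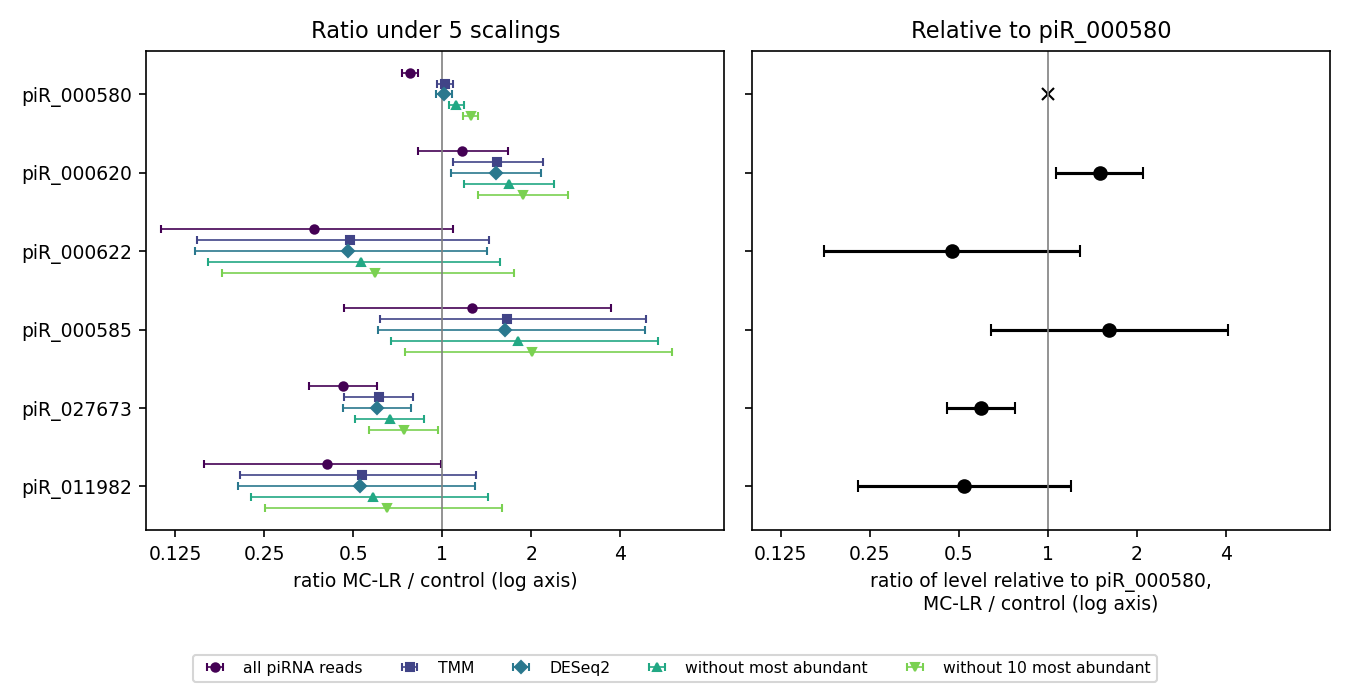
Left, ratio of each piRNA, MC-LR over control, under 5 scalings (x, log axis, with 95% exact intervals). Right, ratio of its level relative to mmu_piR_000580 (x, log axis, with intervals of the log odds ratio, and a cross for mmu_piR_000580 itself). mmu_piR_027673 lies below 1 in both panels with every interval, and mmu_piR_000620 lies at 1.5 on the right, with an interval above 1.

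Together the 6 sequences had 2154 and 2428 reads, a share of 0.883% (0.846 to 0.920) without MC-LR and of 0.675% (0.648 to 0.702) with it. Their summed CPM ratio was 0.764 (0.721 to 0.811), and 1.10 (1.04 to 1.16) when the 5S fragment was left out of the totals. Of all reads of the 19 piRNAs without an exonic match over their whole length, they held 62.6% (61.0 to 64.3) and 70.3% (68.7 to 71.8). Most reads of the 6 do match an exon, since the 27-nt tag of mmu_piR_000580, with 1577 and 1862 reads, lies whole within Snord104. The Snord104 ends alone had 2067 and 2307 of the reads of the 6. The other 13 piRNAs without an exonic match numbered 1285 and 1027 reads, for a CPM ratio of 0.542 (0.499 to 0.589), and of 0.778 (0.716 to 0.846) without the 5S fragment in the totals.

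Other snoRNA fragments were also found close to the ends of their entries. Of 11 further detected piRNAs that lie whole within a snoRNA or small Cajal body RNA entry, 7 were nearer the 3′ end and 4 nearer the 5′ end, at 0 to 5 bases from it. Each came from an entry of its own, so 0 of these 11 entries showed both ends among piRNAs placed whole. Neither Snord104 piece lies whole within its entry, so this count would not have shown the ends of Snord104 either. It cannot tell whether both ends are particular to Snord104. The 7 near a 3′ end had at least 10 reads in a library, with CPM ratios of 0.444 to 0.882, a range that holds mmu_piR_000580 (0.779). The 3 near a 5′ end with enough reads lay at 0.735 to 2.03, above mmu_piR_027673 (0.463). This difference was not tested.

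Further features of the 6 sequences were read from their bases. The longest stretch shared between any of the 15 pairs was 6 bases. Of the 25 tags in each library, 19 of them the same in both, 0 fit another detected piRNA. Since the 6 sequences were chosen to overlap no other detected piRNA, little sharing was set in advance and is no result. None began with U, the first base typical of primary piRNAs, against 47 of the 90 detected, while 5 began with C, against 23 of the 90. An A at position 10, typical of piRNAs from the ping-pong cycle, was carried by mmu_piR_000622 and mmu_piR_000585, against 23 of the 90. Lengths ran from 22 to 30 nt and GC content from 45.5% to 65.4%, with a median of 51.9% over the 90. Of the tRNA marks searched, CCA at the 3′ end was found in 0 of the 6 and in 2 of the 90. The T arm letters GTTCGA were found in 0 of the 6 on either strand. Of the 90, 3 (3.33%) held them on their own strand and 13 (14.4%) on either. Their variant GTTCAA was also found in 0 of the 6, against 0 of the 90 on their own strand and 3 (3.33%) on either. The D arm letters GTGGTTA were found in 0 of the 90. The shorter AGTGGT was found in 1 of the 6, on the strand opposite to the piRNA. Of the 90, 3 (3.33%) held it on their own strand and 4 (4.44%) on either.

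By the nearest CPM ratio among piRNAs with enough reads, over the 2 libraries, mmu_piR_000580 stood beside mmu_piR_023310 (14 and 16 reads, ratio 0.775) and mmu_piR_027673 beside mmu_piR_038322 (56 and 39 reads, 0.472). mmu_piR_000620 stood beside mmu_piR_000585, and mmu_piR_000585 itself beside mmu_piR_015997 (7 and 14 reads, 1.36). mmu_piR_000622 stood beside mmu_piR_039147 (432 and 230 reads, 0.361) and mmu_piR_011982 beside mmu_piR_020120 (132 and 85 reads, 0.437).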

How the data were processed

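The authors deposited counts: reads per annotated piRNA and, per tag, reads with the tag, its piRNA and both lengths. The submitters' processing notes name build mm8. Not given in the sources used here are the aligner, the trimming, the mismatch rule and the piRNA collection. For every piRNA the tag reads added up to its count (0 exceptions), and 0 tags lay outside their piRNA.

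Counts were scaled to 1000000 piRNA reads. A single read is worth 4.10 CPM without MC-LR and 2.78 CPM with it. Intervals (95%) are exact Poisson for levels, exact Clopper-Pearson for shares and CPM ratios, and from the log odds ratio for relative levels. They cover counting error only, since each group has 1 library. No molecular identifiers mark PCR copies, so the intervals may be too narrow even for that error. Medians set a piRNA without reads at 3 reads. Sequences were searched on both strands of GENCODE M21 transcripts (GRCm38), which is not the authors' build, and partial matches were extended from 12 exact bases. The Snord104 placement was found by this partial search, after the values were seen. The piRNAs named are the 6, the most abundant piRNA and the nearest by CPM ratio. The members and lists were chosen with earlier results of these data known. The rule was tested on simulated data. Software was Python 3.11.15, scipy 1.17.1, R 4.3.3, edgeR 4.0.16 and DESeq2 1.42.0, the last 2 for scale factors alone.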

Additional observations from a re-analysis of the deposited data

How the results depend on the processing

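No paired analysis was possible because only 1 library stood for each condition. The count of lower piRNAs among the 6 was 2 and became 0 with TMM factors, with DESeq2 size factors, with totals that leave out the top piRNA or the top 10, and with a fold of 3, where the scale or the stricter fold itself moves the ratio or the limit. It was 1 (mmu_piR_027673) with at least 20 reads, at least 50 reads and exact binomial p-values adjusted by Benjamini-Hochberg. It stayed at 2 with at least 1 read and a fold of 1.5. The count of higher ones was 0 under each of these 10 settings. The summed CPM ratio of 0.764 became 1.01 with TMM, 0.994 with DESeq2, 1.10 and 1.22 with the reduced totals in the same order, and 0.646 without mmu_piR_000580. The level of mmu_piR_027673 relative to mmu_piR_000580, 0.595, turned to 1.49 (0.247 to 8.98) with full-length tags only, where mmu_piR_027673 has 2 and 3 reads. That of mmu_piR_011982, 0.523, became 1.66 (0.392 to 6.99) with full-length tags only and 0.284 (0.0913 to 0.881) with shortened tags only. Under other scalings, 15 of 24 single CPM ratios stayed inside the interval first given and 9 left it. Of 12 relative levels, 10 stayed inside the interval first given, and of 24 differences in tag length or full-length share, 23 stayed. Full-length tags gave no value for mmu_piR_000620, mmu_piR_000622 and mmu_piR_000585, which have none in at least 1 library. Depth limits mmu_piR_000622, mmu_piR_000585 and mmu_piR_011982, with 6 to 15 reads per library.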
